A study of Mus musculus with 18 samples.

Results

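The genes that write and erase DNA methylation were followed in mouse embryonic stem cells (mESCs) that kept or lacked Nsd1, a methyltransferase of lysine 36 of histone H3. The members were 9 of the 20703 genes of the expression table, found by their symbols: the maintenance writers Dnmt1 and Uhrf1, the de novo writers Dnmt3a and Dnmt3b with their cofactor Dnmt3l, the dioxygenases Tet1, Tet2 and Tet3, and the glycosylase Tdg. The rule that found the members used symbols alone, but they were chosen with earlier results of these data known. All 9 passed the low-count filter of the table. RNA-seq libraries came from E14, a widely used mESC line, either WT or from one of 2 clonal knockout lines, KO-1 and KO-2, in which exon 5 of Nsd1 was deleted on both alleles. Cells were collected at day 0, in medium with leukemia inhibitory factor (LIF) and on mouse embryonic fibroblast (MEF) feeder cells, and at day 2 and day 4 after LIF and MEFs were withdrawn. There were 2 biological replicates per line and day, which gives 2 WT and 4 KO libraries per day and 18 in all. The knockout lines were made from E14 cells that carried a 3×Flag tag on Nsd1, while the labels call the controls WT only. KO stands for 2 clones, so that the p-values below measure the spread between libraries and not between many independent lines. A normalized count is the count of a library divided by its size factor, and the genes of the table took 9309874 to 23921193 counts in each library. The 2 WT libraries of day 2 were shallow, with 9309874 and 9356867 counts, against 14595828 to 19445827 in the KO libraries of that day. At day 0, KO-1 replicate 1 had 9644240 counts and WT replicate 2 had 10522426, against 15962776 to 18263995 in the other libraries of that day. In such bulk libraries, fewer cells of a type and less RNA per cell cannot be told apart.

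DNA methylation in mammals sits mainly on the cytosine of CG pairs. Dnmt3a and Dnmt3b place it on unmethylated DNA, Dnmt3l has no catalytic activity and stimulates them, and Dnmt1, guided by Uhrf1 to newly replicated DNA, copies the pattern to the daughter strand. Tet enzymes oxidize methylcytosine, and Tdg cuts out the oxidized bases, which base excision repair then replaces. mESCs in serum and LIF resemble the inner cell mass, and de novo methylation is known to rise as the embryo passes from the naive to the formative epiblast, when Dnmt3b is strongly expressed. Methylated lysine 36 of histone H3 is bound by the PWWP domains of Dnmt3a and Dnmt3b.

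The annotation used for positions and lengths is GENCODE M21, built on GRCm38, whereas reads were counted on mm39. On it, Dnmt1 spans chr9:20907209-20959888 on the minus strand, Uhrf1 chr17:56303321-56323486, Dnmt3a chr12:3806007-3914443, Dnmt3b chr2:153649450-153687730 and Dnmt3l chr10:78041947-78063622, the last 4 on the plus strand. Tet1 lies at chr10:62804570-62908996, Tet2 at chr3:133463679-133545139 and Tet3 at chr6:83362373-83459084, all on the minus strand, and Tdg at chr10:82629828-82650799 on the plus strand. The promoters of 3 members are shown because these genes made the greatest moves reported below: Dnmt3b rose most in WT cells by day 2, Tet2 fell most over the same days, and Dnmt3l differed most between KO and WT. Each is the RefSeq window of 300 bases on GRCm38.p6, from 250 before a transcription start to 50 after it, 5′ to 3′ on the strand of the gene, with the letters CG, the substrate of the enzymes, in capitals. The windows are chr2:153649199-153649498 on the plus strand for Dnmt3b, chr10:78042037-78042336 on the plus strand for the first of the 3 Dnmt3l starts, and chr3:133544341-133544640 on the minus strand for Tet2.
Dnmt3b: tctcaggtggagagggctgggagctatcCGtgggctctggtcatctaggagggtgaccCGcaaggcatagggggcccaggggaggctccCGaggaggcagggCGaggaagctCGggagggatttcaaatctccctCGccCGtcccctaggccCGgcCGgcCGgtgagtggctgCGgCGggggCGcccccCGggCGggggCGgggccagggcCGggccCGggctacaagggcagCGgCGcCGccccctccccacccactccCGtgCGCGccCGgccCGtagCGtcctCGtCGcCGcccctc
Dnmt3l: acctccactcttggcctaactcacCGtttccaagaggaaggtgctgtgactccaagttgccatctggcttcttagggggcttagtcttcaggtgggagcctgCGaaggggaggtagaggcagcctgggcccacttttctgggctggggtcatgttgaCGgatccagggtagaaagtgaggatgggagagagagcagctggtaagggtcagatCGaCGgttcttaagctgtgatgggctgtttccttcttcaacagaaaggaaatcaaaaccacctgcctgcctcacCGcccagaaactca
Tet2: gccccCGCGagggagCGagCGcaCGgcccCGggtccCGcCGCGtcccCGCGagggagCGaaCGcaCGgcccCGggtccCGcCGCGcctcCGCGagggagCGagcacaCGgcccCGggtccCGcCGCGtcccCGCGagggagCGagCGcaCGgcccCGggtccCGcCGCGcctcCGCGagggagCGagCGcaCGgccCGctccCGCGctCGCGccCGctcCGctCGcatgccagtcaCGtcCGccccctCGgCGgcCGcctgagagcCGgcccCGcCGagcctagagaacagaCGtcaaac
The Dnmt3b window holds 30 CG pairs and that of Tet2 57, more than 88.3% and 99.9% of the 32851 RefSeq promoter windows of the same length. The Dnmt3l window holds 6, close to the median of 7 over all windows, whose quartiles are 3 and 20. The other Dnmt3l starts hold 4 and 3. At least 1 CG, searched on 1 strand because the pair reads the same on both, was found in 94.6% of all windows. The 3 windows of Dnmt3a hold 46, 47 and 18 CG pairs, the last at a start inside the gene (chr12:3891494-3891793). Counts per gene do not tell which start was used, and DNA methylation was not measured in these libraries.

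The target of the knockout was examined first. Nsd1 had a mean of 3517 ± 202 normalized counts in WT cells at day 0 (SD, n = 2) and 718 ± 85.4 in KO cells (SD, n = 4). Its means were 3059 ± 403 and 942 ± 71.2 on day 2 and 2268 ± 222 and 818 ± 236 on day 4. Counts are per gene and not per exon, and Nsd1 was called lower in KO at each day, by limma on the VST values with Benjamini-Hochberg adjusted p of 8.77e-10, 1.82e-08 and 1.47e-07. The mESC label was met at day 0 by the pan-pluripotency genes, with Pou5f1 at 9175 ± 144 normalized counts in WT and 6843 ± 477 in KO cells, and Sox2 at 9570 ± 118 and 11527 ± 148.

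A gene was called when its adjusted p was under 0.01 and its log2 fold change on the scale of the variance stabilizing transformation (VST) was over 0.58 in size. That scale compresses differences of weakly expressed genes, which touches Tet2 and Tet3 most. At day 0, 1 of the 9 members was called between KO and WT, Dnmt3b, which was higher in KO. Over all genes 2.61% were called at that day, 1.73% higher and 0.879% lower. At day 2, Dnmt3l and Tet3 were called higher and Dnmt3b lower, 3 of 9, beside 6.38% of all genes, 4.01% higher and 2.37% lower. At day 4, Dnmt3a, Dnmt3b, Dnmt3l, Tet1 and Tet3 were called higher and no member lower, 5 of 9, beside 7.58% of all genes, 3.67% higher and 3.91% lower. The median log2 fold change of the members was 0.07, 0.38 and 0.90 at the 3 days, and that of all genes was −0.0032, −0.016 and 0. With limma-voom on the recovered counts, the members called were identical at each day, also after all libraries were thinned to the smallest total, while 13.3%, 23.9% and 23.9% of all genes were called. All genes called at day 2 numbered 831 higher and 490 lower, a split that became 1007 and 355 when each library was centred on its median and 2136 and 2813 with limma-voom, whose median fold change over all genes was −0.14. At day 0 the split was 359 higher and 182 lower, and 1331 and 1421 with limma-voom. The KO libraries lay entirely above or below the WT libraries for 5 members at day 0, for all 9 at day 2 and for 7 at day 4. This held for 47.4%, 57.5% and 49.8% of all genes.

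**Figure D1:**
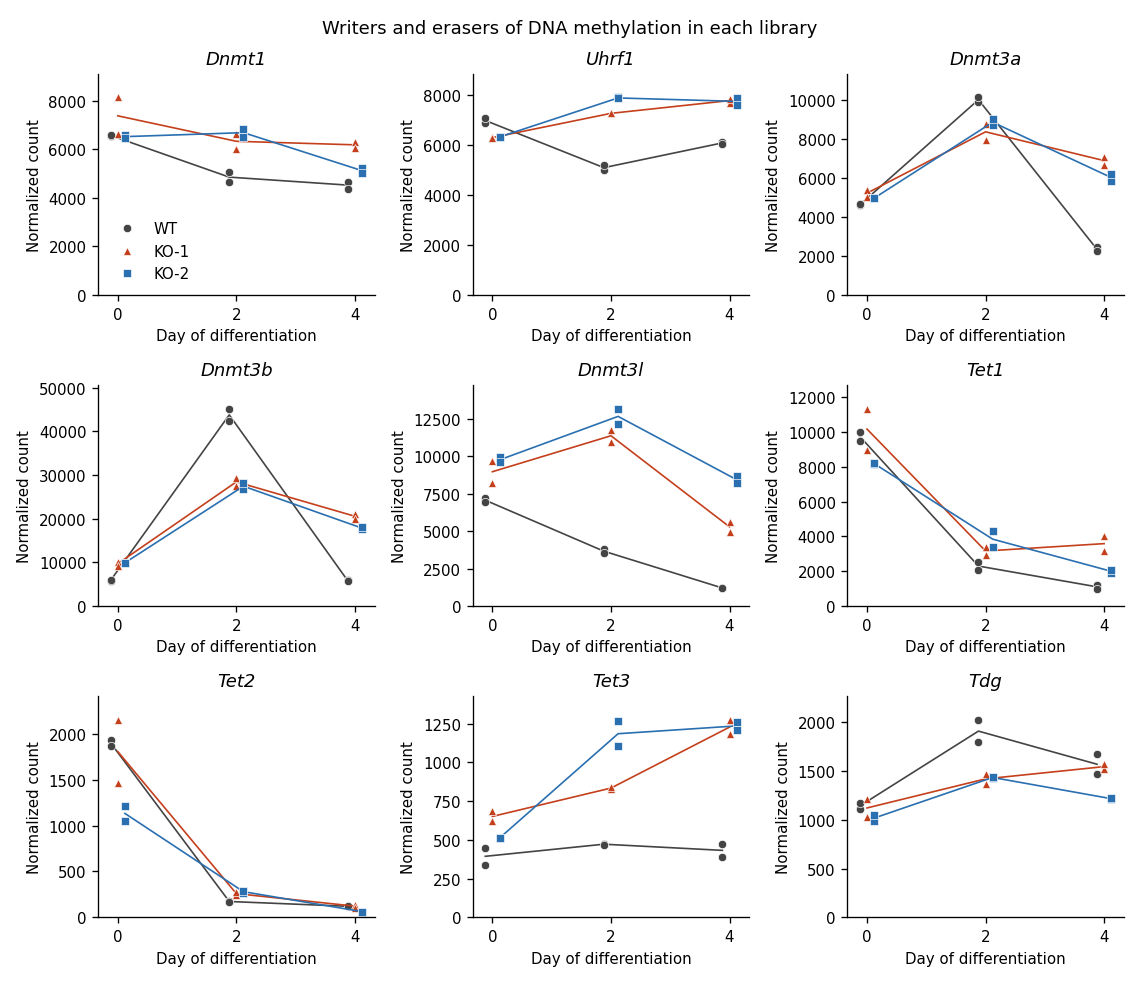
Normalized count (linear axis from 0) of each of the 9 genes against day of differentiation, with 1 point per library, circles for WT, triangles for KO-1 and squares for KO-2, and lines through the mean of the 2 replicates of a line. Dnmt3b in WT peaks at 42343 and 45174 at day 2 and is back at 5919 and 5640 at day 4, when the KO libraries remain between 17612 and 21062.

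Dnmt1, the maintenance methyltransferase, was called neither between genotypes nor between days. Its WT libraries held 6537 and 6598 normalized counts at day 0, 4636 and 5065 at day 2, and 4667 and 4376 at day 4. In KO-1 the values were 8131 and 6620, then 6022 and 6631, then 6314 and 6046. In KO-2 they were 6588 and 6448, then 6516 and 6850, then 5215 and 5020. Genotypes overlapped at day 0, where only KO-1 replicate 1 stood apart, and all KO libraries were above both WT libraries at day 2 and day 4. Log2 fold changes of KO over WT were 0.07 ± 0.09 (SE), 0.38 ± 0.09 and 0.28 ± 0.09 for the 3 days, and the limma adjusted p were 0.627, 0.00184 and 0.0186. None of these was called.

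Uhrf1, which recruits Dnmt1 to hemimethylated DNA, changed its order between genotypes. Its normalized counts in WT cells were 6904 and 7075 at day 0, 5006 and 5191 at day 2, and 6139 and 6043 at day 4. The 4 KO libraries held 6293 to 6343 at day 0, 7275 to 7911 at day 2 and 7611 to 7900 at day 4. KO libraries were thus all below WT at day 0 and all above it at the later days. The log2 fold changes were −0.13 ± 0.06 (adjusted p = 0.0832), 0.52 ± 0.06 (adjusted p = 2.87e-07) and 0.32 ± 0.06 (adjusted p = 9.94e-05) in limma, the last 2 past the threshold on p and not past that on fold. The change of the KO effect from day 0 to day 2 was itself called, at 0.65 ± 0.08 with an adjusted p of 8.02e-06.

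Dnmt3b, the de novo methyltransferase most prominent in the early epiblast, showed the largest changes over time among the writers in WT cells. In WT libraries it stood at 5743 and 6071 normalized counts at day 0, at 42343 and 45174 at day 2 and at 5919 and 5640 at day 4. KO-1 held 10153 and 9240, then 27528 and 29324, then 21062 and 20040. KO-2 held 9898 and 9904, then 26765 and 28101, then 17612 and 18055. No KO library overlapped the WT range at any day, above it at day 0, below it at day 2 and above it again at day 4. The ratio of mean normalized counts of KO to WT was 1.66, 0.638 and 3.32. In limma, the 3 days gave log2 fold changes of 0.67 ± 0.07 (adjusted p = 7.39e-07), −0.64 ± 0.07 (adjusted p = 7.09e-07) and 1.62 ± 0.07 (adjusted p = 3.07e-13). Quantile normalization reduced the difference of day 2 to −0.33, which is not called, and with limma-voom it was −0.65. The WT rise from day 0 to day 2 was 7.41-fold in mean normalized counts and the KO rise 2.85-fold, and this difference in the KO effect was called at −1.31 ± 0.10 (adjusted p = 4.28e-08). From day 2 to day 4 Dnmt3b fell in WT with a log2 change of −2.79, while the KO difference of −0.53 ± 0.06 (adjusted p = 1.35e-06) stayed inside the threshold on the fold.

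Dnmt3a, the second de novo methyltransferase, followed a like time course at a smaller amplitude. WT libraries held 4594 and 4648 normalized counts at day 0, 9898 and 10127 at day 2, and 2444 and 2228 at day 4. In the KO libraries the values lay between 4950 and 5394, between 7946 and 9026, and between 5848 and 7095. The groups were separate at each day, with KO above WT at day 0, below it at day 2 and above it at day 4, and the gap between them was by far the widest at day 4. The log2 fold changes were 0.12 ± 0.07 (adjusted p = 0.217), −0.20 ± 0.07 (adjusted p = 0.0245) and 1.26 ± 0.07 (adjusted p = 1.03e-11) in limma, with only the last called. The change of the KO effect from day 0 to day 4 was 1.14 ± 0.10 (adjusted p = 2.80e-08).

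Dnmt3l, the catalytically inactive partner that stimulates Dnmt3a and Dnmt3b, fell in WT cells at both steps. Its WT libraries held 7176 and 6947 normalized counts at day 0, 3811 and 3511 at day 2, and 1227 and 1185 at day 4. KO-1 libraries held 8231 and 9694, then 11749 and 10972, then 4942 and 5628. KO-2 libraries held 9912 and 9590, then 13167 and 12139, then 8645 and 8217. Every KO library was above both WT libraries at each day, with the ratio of means growing from 1.33 to 3.28 and 5.69. In limma the log2 fold changes were 0.37 ± 0.14 (adjusted p = 0.0559), 1.56 ± 0.14 (adjusted p = 2.83e-08) and 2.02 ± 0.14 (adjusted p = 3.22e-10). The changes of the KO effect against day 0 were called at both later days, at 1.18 ± 0.20 (adjusted p = 0.000289) and 1.65 ± 0.20 (adjusted p = 2.41e-06). Dnmt3l shares 67 bases of exon with Aire on the opposite strand, and the library kit does not mark strand. Aire, a transcriptional regulator best known in the thymus, had 5.11 ± 4.38 normalized counts in WT and 104 ± 36.9 in KO cells at day 4, and at most 4.21% of the count of Dnmt3l in any library. Reads of the pair cannot be told apart within the shared bases.

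Balances within the de novo group were set side by side per library. The ratio of normalized counts of Dnmt3b to Dnmt3a, not divided by length, was 1.25 and 1.31 in the WT libraries of day 0, 4.28 and 4.46 at day 2, and 2.42 and 2.53 at day 4. In KO libraries it ran from 1.83 to 2.00, from 3.08 to 3.46, and from 2.92 to 3.01, outside the WT range at each day. The ratio of Dnmt3b to Dnmt3l went in WT from 0.800 and 0.874 to 11.1 and 12.9, and stood at 4.83 and 4.76 at day 4. In KO it ran from 0.953 to 1.23, from 2.03 to 2.67 and from 2.04 to 4.26. At day 2 Dnmt3l made up 12.6% and 11.1% of the summed normalized counts per kilobase of the 3 genes in WT, and 36.9% to 43.3% in KO. These ratios are descriptions and were not tested.

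**Figure D2:**
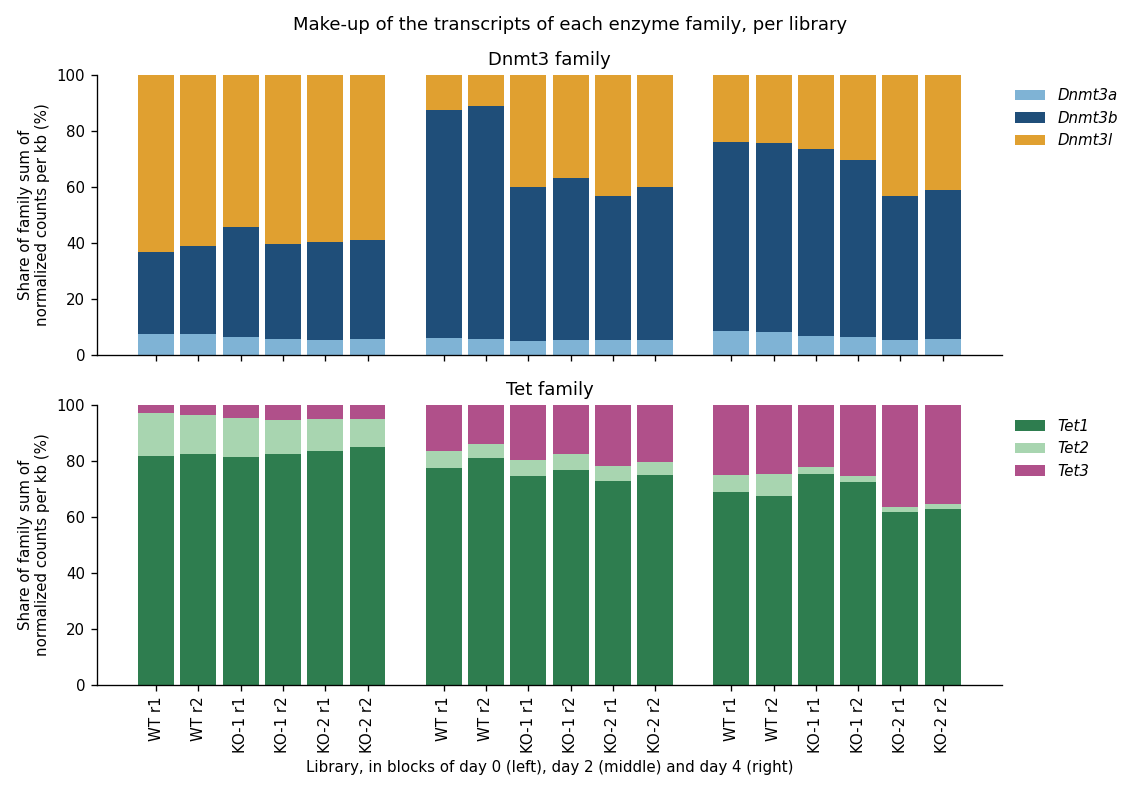
Share (%) of each gene in the sum of normalized counts per kilobase of merged exons of its family, for the Dnmt3 genes (top) and the Tet genes (bottom), with 1 bar per library in blocks of day 0, day 2 and day 4. At day 2 the Dnmt3l share is 11.1% and 12.6% in the WT bars and 36.9% to 43.3% in the KO bars.

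Tet1, a dioxygenase abundant in mESCs, fell in both genotypes by day 2 and was called higher in KO at day 4. WT libraries held 9453 and 10004 normalized counts at day 0, 2056 and 2537 at day 2, and 1217 and 989 at day 4. KO-1 libraries held 11329 and 8986, then 2926 and 3395, then 4021 and 3146. KO-2 libraries held 8130 and 8225, then 3395 and 4286, then 1904 and 2088. Genotypes overlapped at day 0, and all KO libraries exceeded WT at the later days. In limma the log2 fold changes were −0.09 ± 0.18 (adjusted p = 0.755), 0.50 ± 0.18 (adjusted p = 0.0312) and 0.97 ± 0.18 (adjusted p = 0.000214), with only the last called. With KO-2 alone day 2 was called too, at 0.61 (adjusted p = 2.51e-06), while with KO-1 alone it was not. The mean VST value of day 2 was 11.88 in KO-1, 12.12 in KO-2 and 11.50 in WT. The call of day 4 was lost when the libraries of day 4 were fitted alone (adjusted p = 0.0284) and without WT day 4 replicate 2, where the fold was 0.87 (adjusted p = 0.0121). The change of the KO effect from day 0 to day 4 was 1.06 ± 0.26 (adjusted p = 0.00377), and this call was lost when any 1 of the 4 WT libraries of those days was left out.

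Tet2, which like Tet1 is abundant in naive mESCs, fell in both genotypes by day 2. In WT its normalized counts were 1936 and 1869 at day 0, 173 and 172 at day 2, and 119 and 121 at day 4. KO-1 held 2155 and 1463, then 244 and 272, then 138 and 105. KO-2 held 1212 and 1056, then 268 and 290, then 60.2 and 62.9. The groups overlapped at day 0 and day 4, and the 4 KO libraries of day 2 were above WT. By day 2 the mean normalized count was at 0.0906 of its day 0 value in WT and 0.183 in KO, and the log2 fold changes of −1.91 ± 0.15 and −1.37 ± 0.10 were both called by limma (adjusted p = 2.71e-09 and 2.11e-09). Between genotypes, no difference of Tet2 was called at any day. At day 2 the log2 fold change was 0.24 ± 0.13 on the VST scale (adjusted p = 0.136) and 0.63 ± 0.36 in limma-voom (adjusted p = 0.168), from 106 counts in each WT library. The change of the KO effect of Tet2 from day 0 to day 2 was 0.55 ± 0.18 (adjusted p = 0.0363), not called, and it was called without KO-1 day 0 replicate 1, at 0.70 (adjusted p = 0.000215).

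Tet3, the weakest Tet gene at day 0 and the one best known from the zygote and from later tissues, was called higher in KO at day 2 and day 4. Its WT libraries held 339 and 449 normalized counts at day 0, 476 and 468 at day 2, and 473 and 391 at day 4. KO-1 held 684 and 619, then 830 and 840, then 1275 and 1182. KO-2 held 511 and 512, then 1106 and 1266, then 1212 and 1260. Every KO library was above both WT libraries at all 3 days. The log2 fold changes were 0.29 ± 0.09 (adjusted p = 0.0249), 0.63 ± 0.09 (adjusted p = 1.63e-05) and 0.90 ± 0.09 (adjusted p = 1.16e-07) in limma, and the last 2 were called. The ratio of mean normalized counts of KO to WT was 1.48, 2.14 and 2.85. The call of day 2 was lost in KO-1 alone, at 0.47, without KO-2 day 2 replicate 2, at 0.56, and with quantile normalization, at 0.53. From day 0 to day 2 the KO change was 0.48 ± 0.08 on the VST scale, not called, and 0.80 ± 0.13 in limma-voom (adjusted p = 4.26e-05), which was called.

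As a share of the summed normalized counts per kilobase of the 3 Tet genes, Tet3 went from 2.72% and 3.43% in WT at day 0 to 24.8% in both WT libraries at day 4. In KO it went from between 4.54% and 5.26% to between 22.2% and 36.4%. Tet1 remained the main Tet transcript by this measure, with at least 61.8% in every library. The Tet2 share went from 15.4% and 14.1% in WT at day 0 to 6.17% and 7.59% at day 4, and in KO from at most 14.2% to between 1.74% and 2.37%. These shares depend on the length used. With the longest coding transcript, the Tet2 share in WT was 23.4% and 21.6% at day 0 and 9.18% and 11.2% at day 4. Tet1 then held at least 52.9% in every library. Shares were not tested.

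Tdg, the glycosylase that removes oxidized methylcytosine, was called between genotypes at no day. WT libraries held 1109 and 1175 normalized counts at day 0, 1794 and 2024 at day 2, and 1670 and 1469 at day 4. KO libraries ran from 990 to 1214, from 1369 to 1470 and from 1210 to 1573. KO was below WT in all libraries at day 2, and the groups overlapped at the other days. In limma the log2 fold changes were −0.07 ± 0.08 (adjusted p = 0.577), −0.31 ± 0.08 (adjusted p = 0.00257) and −0.14 ± 0.08 (adjusted p = 0.183). From day 0 to day 2 its WT change was 0.54 ± 0.09 on the VST scale (adjusted p = 6.91e-05), short of the fold threshold. It was called higher at day 2 in limma-voom, at 0.74 ± 0.13 (adjusted p = 0.000178), and on the VST scale without WT day 2 replicate 1, at 0.60. Tdg is uncertain because reads may be shared with a near copy, the pseudogene Tdg-ps2, which had 736 ± 15.0, 1355 ± 1.77 and 1137 ± 76.1 normalized counts in WT and 713 ± 56.4, 1005 ± 48.6 and 1015 ± 77.5 in KO. The sum of gene and pseudogene was 1878 ± 62.1, 3265 ± 165 and 2706 ± 219 in WT. Its KO mean was 1782 ± 148 on day 0 and 2396 ± 260 on day 4, and its KO range on day 2 was 2304 to 2511, below both WT libraries. The exons of Tdg also share 367 bases with Glt8d2 on the opposite strand, which had at most 14.7 normalized counts in any library. Dnmt3c, a close relative of Dnmt3b, did not exceed a mean of 16.2 normalized counts in either genotype at any day.

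**Figure D3:**
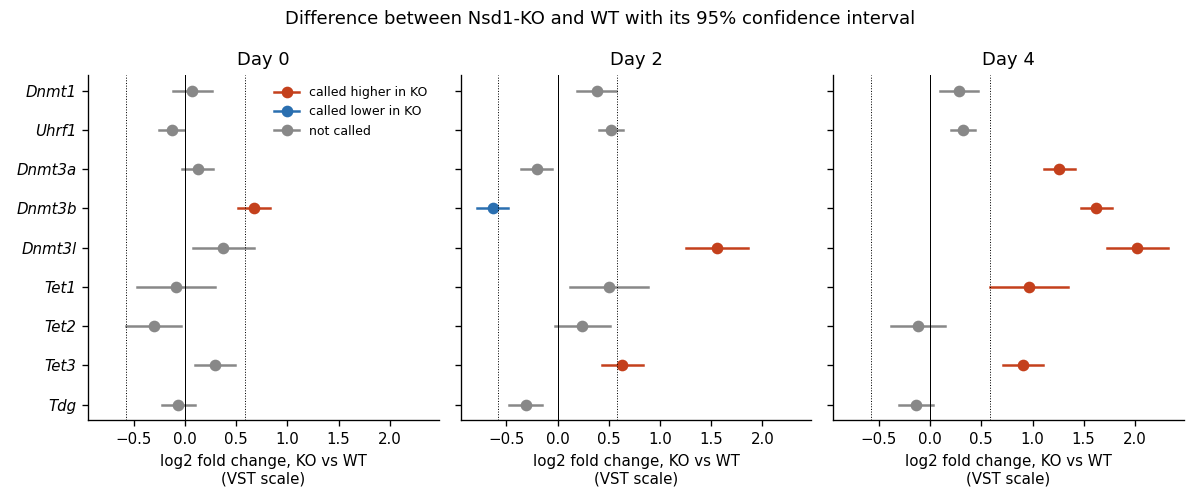
Log2 fold change of KO over WT on the VST scale (points) with its 95% confidence interval from limma (bars) for the 9 genes at day 0, day 2 and day 4, from 4 KO and 2 WT libraries per day, with dotted lines at the fold threshold of 0.58 in each direction. Points in red or blue are called higher or lower, 1 gene at day 0, 3 at day 2 and 5 at day 4.

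The time courses of the genotypes were compared next. In WT cells 5 of 9 members were called between day 0 and day 2, beside 6.68% of all genes, with Dnmt3a (1.02 ± 0.08) and Dnmt3b (2.76 ± 0.09) higher at day 2 and Dnmt3l (−0.84 ± 0.17), Tet1 (−1.84 ± 0.21) and Tet2 lower. Between day 2 and day 4, 4 of 9 were called in WT, beside 8.76% of all genes. All 4 fell, with log2 changes of −1.85 ± 0.08 for Dnmt3a, −2.79 ± 0.09 for Dnmt3b, −1.25 ± 0.17 for Dnmt3l and −0.78 ± 0.21 for Tet1, and Tet1 was no longer called when any 1 of the 4 WT libraries of these days was left out, or with a replicate block within each day (−0.60, adjusted p = 0.0726). In KO cells, 4 of 9 were called between day 0 and day 2, beside 3.20% of all genes, with Dnmt3a (0.69 ± 0.06) and Dnmt3b (1.45 ± 0.06) higher and Tet1 (−1.25 ± 0.15) and Tet2 lower. Only Dnmt3l (−0.79 ± 0.12) was called between day 2 and day 4 in KO, 1 of 9, beside 1.49% of all genes. There limma-voom added Tet2, which fell by 1.67 ± 0.28 (adjusted p = 0.000113), 2 of 9, beside 10.3% of all genes. It also added Tdg in WT and Tet3 in KO between day 0 and day 2, 6 of 9 beside 19.5% and 5 of 9 beside 16.3%. Dnmt3a and Dnmt3b thus rose in both genotypes by day 2, and of the 3 de novo genes that fell in WT after day 2 only Dnmt3l passed the thresholds in KO. Between genotypes, the change from day 0 differed for 3 of 9 members at day 2 (Uhrf1, Dnmt3b and Dnmt3l), beside 3.19% of all genes. At day 4 it differed for 5 of 9 (Dnmt3a, Dnmt3b, Dnmt3l, Tet1 and Tet3), beside 6.93%. The call of Tet3 was lost without WT day 0 replicate 2 (0.52, adjusted p = 0.0215) and without WT day 4 replicate 2 (0.55, adjusted p = 0.0190), and that of Tet1 as given above. These comparisons share libraries with those of each day, so they are not separate evidence.

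The 2 knockout clones were also compared with each other. No member was called between them at day 0 or day 2, beside 0.029% and 0.0435% of all genes, while 1 member at each of these days had an adjusted p under 0.05, beside 0.551% and 0.966% of all genes. These were Tet2 at day 0, higher in KO-1 by 0.47 ± 0.09 (adjusted p = 0.0126), and Tet3 at day 2, lower in KO-1 with a difference of −0.33 ± 0.07 (adjusted p = 0.0168). At day 0 Tet2 had 2155 and 1463 normalized counts in replicates 1 and 2 of KO-1, and 1212 and 1056 in KO-2. Without KO-1 day 0 replicate 2, the nearer of the KO-1 libraries to KO-2, the Tet2 difference was 0.68, past the fold threshold. The difference thus rested more on KO-1 day 0 replicate 1. At day 4, 2 of 9 were called, beside 0.251% of all genes, and the same 2 by limma-voom, beside 2.23%. Dnmt3l was lower in KO-1, with 4942 and 5628 normalized counts against 8645 and 8217 in KO-2, a log2 difference of −0.62 ± 0.07 (adjusted p = 5.15e-05). Tet1 was higher in KO-1, with 4021 and 3146 against 1904 and 2088, a log2 difference of 0.68 ± 0.12 (adjusted p = 0.000942). Both calls were lost without KO-1 day 4 replicate 1, and that of Tet1 also without KO-2 day 4 replicate 1. Each clone alone nevertheless lay above both WT libraries for Dnmt3l and Tet1 at day 4.

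The order of levels among the genes was taken per kilobase of merged exons. In WT cells at day 0 the order of normalized counts per kilobase was Dnmt3l (2363 ± 54.0, SD, n = 2), Uhrf1 (1641 ± 28.5), Dnmt3b (1157 ± 45.4), Dnmt1 (890 ± 5.78), Tet1 (629 ± 25.2), Dnmt3a (278 ± 2.30), Tdg (213 ± 8.77), Tet2 (113 ± 2.80) and Tet3 (23.6 ± 4.66), with no overlap between neighbours. At day 2 Dnmt3b led WT with 8570 ± 392, and Dnmt3l (1225 ± 71.2) and Uhrf1 (1197 ± 30.8) overlapped behind it. Uhrf1 led WT at day 4 with 1430 ± 16.1, followed by Dnmt3b with 1132 ± 38.6, Dnmt1 with 613 ± 27.9 and Dnmt3l with 403 ± 9.97. In KO cells Dnmt3l led at day 0 with 3131 ± 255 (SD, n = 4) and Dnmt3b came before Uhrf1, with 1919 ± 76.5 against 1483 ± 4.74. Dnmt3b led KO at day 2 with 5470 ± 211 ahead of Dnmt3l with 4018 ± 306, an order that was lost with the length of the longest coding transcript, where Dnmt3l had 6590 and Dnmt3b 6465. At day 4 Dnmt3b led KO with 3759 ± 320, and Dnmt3l (2295 ± 618) overlapped with Uhrf1 (1825 ± 32.3). Tdg and Tet1 overlapped in KO at both later days. With the length of the longest coding transcript, Dnmt3b (4443 ± 378) and Dnmt3l (3764 ± 1013) overlapped in KO at day 4, while Dnmt3l no longer overlapped with Uhrf1, nor did both genes overlap in WT at day 2 or Tdg with Tet1 in KO, and Dnmt3a came before Dnmt1 in WT at day 2. With either length, Tet3 and Tet2 were the lowest of the 9 in both genotypes at day 2 and day 4.

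Across the 18 libraries, the members with the most similar profiles were Tet1 and Tet2 and, next to them, Dnmt3a and Dnmt3b, both with a Pearson r of 0.92 between VST values. These correlations carry no test, since libraries of a group share their day and genotype. Among 10225 genes with a mean of at least 100 normalized counts, the profile most like Dnmt3b was that of Ube2k (r = 0.97), most like Dnmt3a that of Rims4 (0.98) and most like Dnmt3l that of Trap1a (0.98). Nearest to Dnmt1 was Mlh3 (0.98), to Uhrf1 Trp53inp1 (0.92), to Tet1 Fzd5 (0.99), to Tet2 Itpk1 (0.98) and to Tet3 Rhpn2 (0.96). For Tdg it was the near copy Tdg-ps2 (0.96).

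The genes around the members in the pathway were taken from lists, whose counts stand beside 2.61%, 6.38% and 7.58% of all genes called at day 0, day 2 and day 4 by limma on the VST values, and beside 13.3%, 23.9% and 23.9% by limma-voom. Of 12 base excision repair genes, which act after Tdg, none was called at any day by limma on the VST values, while limma-voom called 1, 2 and 2 of them. Ung, which removes uracil from DNA, came nearest at day 4, with 1314 ± 136 normalized counts in WT and 2146 ± 119 in KO and a log2 fold change of 0.53 ± 0.06 (adjusted p = 1.02e-06). Of 8 methyl-CpG readers, none was called either, and limma-voom called 1 at each day. Zbtb4, a zinc finger reader, had 120 ± 6.97 normalized counts in WT and 23.4 ± 11.7 in KO at day 4, a log2 fold change of −0.49 on the VST scale and −2.47 in limma-voom. The medians of these 2 lists lay between −0.11 and 0.10 at the 3 days.

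Of 16 cofactors and regulators, 2 were called higher in KO at day 0, 3 at day 2, and 3 higher and 1 lower at day 4, with list medians of 0.09, 0.26 and 0.36. By limma-voom the counts were 2 higher and 2 lower at day 0, 5 higher and 0 lower at day 2, and 8 higher and 1 lower at day 4. Dppa3, which protects DNA from methylation by holding Uhrf1 off chromatin, was called higher at all 3 days. It had 85.7 ± 9.28 normalized counts in WT and 749 ± 133 in KO at day 0, 23.6 ± 3.54 and 375 ± 124 at day 2, and 3.16 ± 4.46 and 270 ± 22.5 at day 4. Qser1, which shields CG-rich promoters from Dnmt3 enzymes, was higher at day 0 (0.73 ± 0.11) and day 4 (0.69). Zfp57, which keeps methylation at imprinted regions, was higher at day 2, with 379 ± 38.2 against 1632 ± 78.1, as was Ogt, a partner of the Tet enzymes (0.67 ± 0.09). Usp7, a deubiquitinase that binds Dnmt1 and Uhrf1, was higher at day 4 (0.70 ± 0.10), and Gadd45b, a stress gene linked to demethylation, was lower, with 693 ± 54.5 in WT against 105 ± 23.4 in KO. Of 12 genes of methyl donor metabolism, 1 was called higher and 1 lower at day 0, 2 higher at day 2 and 2 higher at day 4. Mat2a, the synthetase of S-adenosylmethionine, was higher at day 0 (0.88 ± 0.06, adjusted p = 6.76e-10 in limma). Shmt2 was lower at that day (−0.60 ± 0.08, adjusted p = 6.02e-06 in limma), with 4369 ± 134 normalized counts in WT against 2678 ± 188 in KO. Tdh, the threonine dehydrogenase of mESCs, was higher at day 2, with 587 ± 20.8 normalized counts in WT against 1581 ± 285 in KO, and at day 4, with 88.5 ± 4.26 against 1068 ± 73.8.

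Of 18 germline genes whose promoters are known to be silenced by DNA methylation, 1 was called higher and 1 lower at day 0, 2 higher and 1 lower at day 2, and 6 higher and none lower at day 4 (Ddx4, Stk31, Rhox5, Hormad1, Tex19.1 and Slc25a31). By limma-voom the counts were 4 higher and 5 lower, 3 higher and 7 lower, and 10 higher and none lower. Of all genes, 2.61%, 6.38% and 7.58% were called on the VST scale at the 3 days and 13.3%, 23.9% and 23.9% by limma-voom. The list medians on the VST scale were −0.04, −0.13 and 0.28. Ddx4, a germ cell helicase, had 244 ± 8.88 normalized counts in WT and 1385 ± 107 in KO at day 4. Rhox5, a homeobox gene of the X chromosome, was called higher at all 3 days (0.68 ± 0.09, 0.91 ± 0.09 and 1.08 ± 0.09). Mael, a factor of the piRNA pathway, went the other way at day 0 and day 2, with 1019 ± 188 and 604 ± 21.8 normalized counts in WT against 178 ± 28.7 and 77.6 ± 19.3 in KO. Nsd2, the sister gene of Nsd1, was called higher at each day (0.76 ± 0.10, 0.70 ± 0.10 and 0.65 ± 0.10), and the other 3 of the 5 H3K36 methyltransferases were not called by limma on the VST values. Of these, limma-voom called Setd2 higher at day 2, at 0.59, where the VST scale gave 0.47 ± 0.12 (adjusted p = 0.00383).

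**Figure D4:**
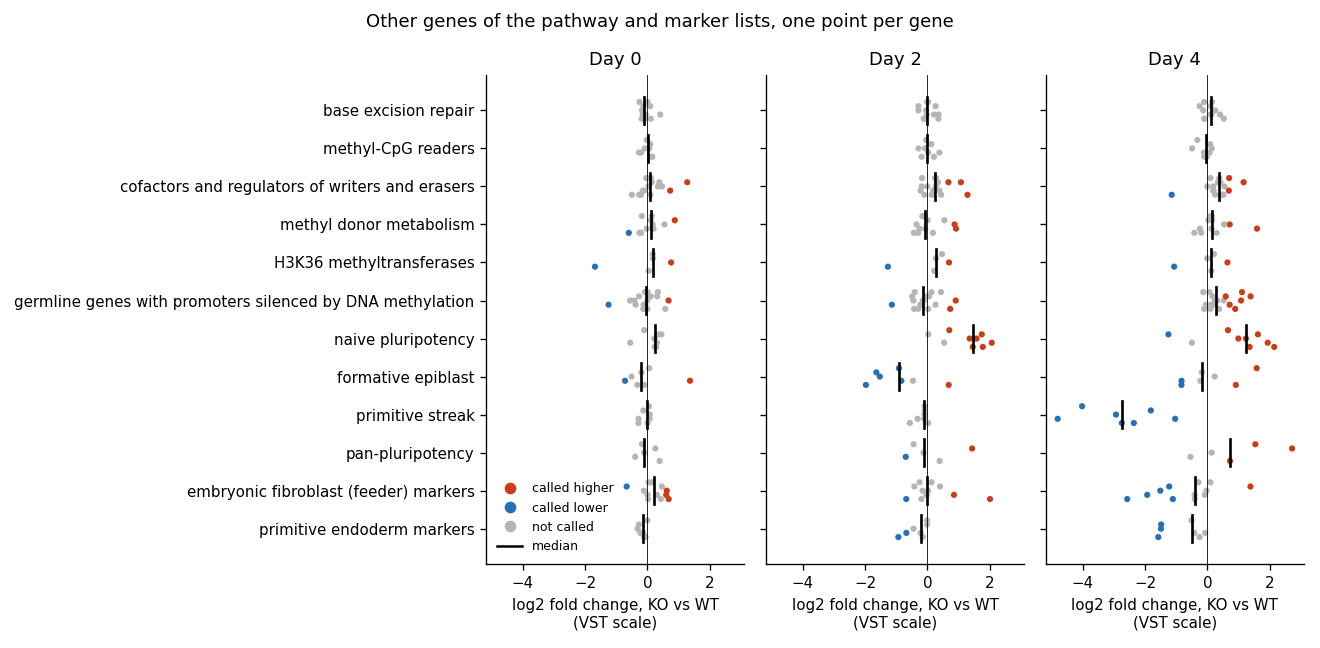
Log2 fold change of KO over WT on the VST scale at day 0, day 2 and day 4 for each gene (point) of 12 pathway and marker lists, with black bars for list medians and colours for genes called higher (red), called lower (blue) or not called (grey). Points of base excision repair and methyl-CpG readers stay grey at all days, 7 of 9 naive pluripotency genes are red at day 2 and day 4, and all 7 primitive streak genes are blue at day 4.

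Markers of cell state and of other cell types were measured beside the writers and erasers. The summed normalized counts of 9 naive pluripotency genes, none of which was at 0 in any library, were 61703 and 61871 in WT and 68074 to 74702 in KO at day 0, when Esrrb had the highest mean in both genotypes. At day 2 they were 3393 and 3739 against 15030 to 16674, and at day 4 they were 6026 and 5959 against 10734 to 14958, with 7 of 9 genes called higher in KO at both days and Klf5 called lower at day 4. Of 7 formative epiblast genes, 1 was called higher and 5 lower in KO at day 2, when Fgf5 had 1570 ± 146 normalized counts in WT and 107 ± 87.8 in KO. At day 0 Zic2 was called higher (1.36 ± 0.10) and Lef1 lower (−0.72 ± 0.08), and at day 4 Sall2 (1.59 ± 0.08) and Tcf15 (0.92 ± 0.12) were called higher and Fgf5 (−0.83 ± 0.18) and Lef1 (−0.83 ± 0.08) lower. The 7 primitive streak genes were all called lower in KO at day 4, with sums of 33394 and 32531 in WT and 328 to 871 in KO. T was the most abundant of them in WT, with 16248 ± 272 normalized counts against 140 ± 90.4 in KO, and Eomes was the most abundant in KO, with 5637 ± 221 in WT against 415 ± 185. Of 5 pan-pluripotency genes, Sox2 was called higher and Pou5f1 lower at day 2, and Sox2, Lin28a and Utf1 higher at day 4. Of 8 primitive endoderm markers, 2 were called lower at day 2 (Col4a1 and Dab2) and 4 at day 4 (Col4a1, Gata4, Gata6 and Pdgfra), when their sums were 6394 and 6243 in WT and 1218 to 1432 in KO, with Col4a1 the most abundant. The 12 feeder fibroblast markers, with Fn1 the most abundant, summed to 29799 and 30126 in WT and 39348 to 43774 in KO at day 0, where Col3a1, Col1a2 and Col1a1 were called higher and Pdgfrb lower. Their sums were 6396 and 7042 against 19240 to 23219 at day 2, with Fn1 and Vim called higher and Thy1 lower, and 78800 and 71771 against 13326 to 15793 at day 4, with Col5a2 called higher and Fn1, Vim, Pdgfra, Col1a1 and Pdgfrb lower. Fn1 alone held 20063 and 20432 of the WT sums at day 0, and 54170 and 49015 of those at day 4. The WT sums were highest at day 4, after MEFs were withdrawn, so this list does not measure feeder cells alone. Lum was at 0 in all 6 libraries of day 0, and Col1a1, a collagen of fibroblasts, had 1482 ± 15.8 normalized counts in WT and 2732 ± 290 in KO at that day. The part of cell state and of feeder cells in the differences of the members was not tested.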

How the data were processed

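RNA was sequenced as polyA libraries of a kit that does not mark strand. Per the labels and the methods of the study, the authors trimmed reads with Trim Galore 0.6.7, aligned them to mm39 with STAR 2.7.11a, counted exonic reads with featureCounts 2.0.6, removed genes of low average count, and deposited VST values of DESeq2 1.42.0, which are on a log2 scale. The VST was inverted from its lowest value, 8.36, which stands for a count of 0, and gave whole counts for 100% of values (tolerance 0.02) with the size factors. Among recovered counts of 1 to 20, 72.5% to 77.5% per library were even, for a reason not given in the sources used here.

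VST values of all 20703 genes were fitted in limma 3.58.1 (R 4.3.3) with a trended prior variance, 6 groups of genotype and day with both clones pooled, and Benjamini-Hochberg adjustment over all genes. The clones were compared in a fit of 9 groups. Errors of fold changes are SE, and those of levels are SD over libraries. The fits were also tried on simulated data, whose outcome is not given here. Replicates of each line and day differed by more than sampling noise (chi-square per degree of freedom 2.22 to 12.6, and 1.11 to 6.32 with all counts halved, as if each fragment had been counted as 2 reads), and the labels give no batch. DESeq2 was not run here. Alternatives were limma-voom on recovered counts (by size factors, library totals, or after thinning), quantile normalization, median centring, a low-value filter, no trend, single days, single clones, a replicate block and each library left out. limma-voom with a replicate block and a replicate block within each day were added after the data were seen. Same-numbered replicates deviated together within day 2 (correlations over 0.1 for all 3 pairs of groups), which the labels do not explain. Exon lengths came from GENCODE M21 by Ensembl identifier (99.5% of genes matched), and promoter windows from RefSeq on GRCm38.p6.

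The members and lists were chosen with earlier results of these data known. Named were the members, up to 3 genes per list and day with the largest absolute log2 fold change of KO over WT, the most similar profiles over the 18 libraries, Nsd1, and genes that overlap or copy a member; other genes named where a list had few calls were picked after their values were seen. Sequencing depth, 9309874 to 23921193 counts per library with a median of 15721347, leaves 106 counts for the least covered WT value of the members, Tet2 at day 2.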

Additional observations from a re-analysis of the deposited data

Results flagged for a closer look

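Dnmt1 at day 0 was singled out because 1 of the 4 KO libraries stood far from the rest. KO-1 replicate 1 had 8131 normalized counts against 6448 to 6620 in the other 3, and its gap was 0.887 of the whole range of VST values, above Dixon's 95% critical value for 4 libraries. Of 27 groups of 4 KO libraries tested, this was the only one, and chance alone exceeds the limit in about 1 group in 20. KO-1 day 0 replicate 1 had 9644240 counts, the fewest of the KO libraries. It also held the highest KO value of day 0 for Dnmt3a, Dnmt3b, Tet1, Tet2, Tet3 and Tdg. For Dnmt3l it held the lowest, and for Uhrf1 it lay between the others. The deviation was thus not limited to Dnmt1.

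The other results were singled out because the effect of the knockout, or the level of a gene, differed between groups in a test of that difference in limma. Between day 0 and day 2 the log2 fold change of KO over WT changed by 0.65 for Uhrf1, by −1.31 for Dnmt3b and by 1.18 for Dnmt3l. Between day 0 and day 4 it changed by 1.14 for Dnmt3a, by 0.95 for Dnmt3b, by 1.65 for Dnmt3l, by 1.06 for Tet1 and by 0.61 for Tet3. The last of these was not called without WT day 0 replicate 2 (0.52) or WT day 4 replicate 2 (0.55), and that of Tet1 was not called when any 1 of the 4 WT libraries of day 0 and day 4 was left out, where it ran from 0.96 to 1.16. Between the clones KO-1 and KO-2 at day 4, the difference was −0.62 for Dnmt3l and 0.68 for Tet1, both lost without KO-1 day 4 replicate 1, where they were −0.53 and 0.53.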

How the results depend on the processing

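Over 36 pairs of groups and 10228 genes, the correlation of the replicate differences had a mean of −0.048 and ran from −0.62 to 0.64, with 13 pairs over 0.1, so that replicate numbers did not pair the libraries across days. Within day 2 they went together, with 0.48 for WT and KO-1, 0.37 for WT and KO-2 and 0.43 for both clones. Within day 0 no pair was over 0.1, with −0.24, −0.0048 and 0.00067 for the same pairs. Within day 4 only WT and KO-1 were, with 0.35, beside −0.26 for WT and KO-2 and −0.50 for both clones. A replicate block common to all days changed no member call on the VST scale, with 1, 3 and 5 members called between KO and WT at the 3 days. A replicate block within each day, added after the data were seen, gave the same 3 counts and lost only the call of Tet1 for WT day 4 against day 2, where 3 members were left. Dropping the fold threshold at an adjusted p under 0.05 gave 2, 8 and 7 members between KO and WT at the 3 days, beside 29.7%, 46.0% and 37.2% of all genes, 8 for WT day 2 against day 0 (40.6%), 8 for KO day 2 against day 0 (35.7%), 4 for KO day 4 against day 2 (23.7%), 5 for the change of the KO effect by day 2 (21.7%), and 1, 1 and 5 between clones at the 3 days (0.551%, 0.966% and 12.8%). Quantile normalization left 1 member at day 2, beside 1262 of all genes called, against 1321 in the main fit. For KO day 4 against day 2, 2 members were called by limma-voom with size factors, with library totals, after thinning and with the replicate block. With 1 library left out, the count ran from 1 to 2 for KO day 4 against day 2 (2 without KO-1 day 4 replicate 1). Over all genes the lowest count for that comparison under any setting was 300, against 308 in the main fit. Without WT day 0 replicate 2, the change of the KO effect by day 4 was 1.02 for Tet1 and 0.52 for Tet3. Without WT day 4 replicate 2 it was 0.96 and 0.55. Between clones at day 0, Tet2 differed by 0.68 without KO-1 day 0 replicate 2, which left only the higher KO-1 value. At day 4, without KO-1 day 4 replicate 1, Dnmt3l differed between clones by −0.53 and Tet1 by 0.53. The causes were not tested.

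Signs turned for differences that were called under no setting: Tet1 at day 0 with KO-1 alone (0.0504), Dnmt1 at day 0 with KO-2 alone (−0.0101), Tet2 at day 4 with KO-1 alone (0.00265), and, with 1 library left out, Dnmt1 at day 0 (−0.00325 to 0.0994, below 0 without KO-1 day 0 replicate 1), Tet3 in WT from day 2 to day 4 (−0.134 to 0.00133, above 0 without WT day 4 replicate 2) and Tdg in KO over those days (−0.0870 to 0.00333, above 0 without either KO-2 day 4 replicate, and 0.0111 with the replicate block within each day). The change of the KO effect by day 4 turned for Tdg with quantile normalization (0.00237) and for Tet2 with limma-voom by size factors (−0.0554), library totals (−0.0252), thinning (−0.209) and the replicate block (−0.0736). Of the other values per gene, 1561 with 1 library left out and 1022 under other settings kept direction and side of the threshold. Over all genes, limma-voom called 2752, 4949 and 4957 between KO and WT at the 3 days against 541, 1321 and 1569 on the VST scale, which compresses weakly expressed genes. By limma-voom the lists of cofactors, feeder markers and primitive endoderm markers had 4, 5 and 9, then 5, 5 and 9, then 3, 4 and 7 calls at the 3 days, against 2, 3 and 4, then 4, 3 and 6, then 0, 2 and 4 on the VST scale, and for the lists whose limma-voom counts are not printed the number of calls differed by at most 1 at each day.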
